A study of Homo sapiens with 2 samples.

Results

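The expression of the 44 collagen alpha chain genes was described in U87 cells after 72 h with CCA-1.1, an analog of curcumin, or with DMSO as its vehicle control. U87 is an established human glioblastoma cell line, labelled WT for genotype in both conditions, and was grown in RPMI with fetal bovine serum. There was 1 library of polyadenylated RNA per condition, so differences between the 2 libraries cannot be checked against replicates and are given without p-values. The CCA-1.1 concentration used for sequencing is not given in the sources used here. The members are all protein-coding genes whose RefSeq symbol is COL, a number, A and a number, out of 19938 protein-coding genes that the table covers. They were grouped as 11 fibrillar chains, 6 basement membrane chains of type IV collagen, 10 FACIT chains (fibril-associated collagens with interrupted triple helices) and 17 chains of other types.

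Collagens are extracellular proteins in which alpha chains with a repeated glycine-X-Y sequence wind into a triple helix. Fibrillar collagens assemble into the tension-bearing fibers of connective tissue, FACIT collagens decorate those fibers, type IV collagen forms the sheet of basement membranes, and type VI collagen forms beaded microfilaments. In brain, interstitial collagen is largely restricted to vessel walls and meninges, whereas glioblastoma cells in culture are known to deposit collagen themselves.

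The values are in TPM, transcript abundances scaled to transcript length and library total, so levels can be compared between genes. TPM does not carry the read depth, and counting intervals and limits for values of 0 are therefore not given. TPM was summed over the transcripts of each gene. A difference is the log2 of CCA-1.1 TPM + 1 over DMSO TPM + 1, and differences of low genes are understated on it. Genes whose mean over both libraries reached 1 TPM are termed expressed. The 12041 expressed protein-coding genes had a median difference of 0.017, with -0.31 as 5th and 0.36 as 95th percentile. In bulk RNA, fewer cells that express a gene and less RNA of it per cell cannot be told apart. Of 5 mesenchymal markers, VIM (3217 TPM with DMSO, 3106 TPM with CCA-1.1), S100A4 (1233 and 1294 TPM) and CD44 (607 and 473 TPM, difference -0.36) were abundant, ACTA2 was at 22.2 and 24.3 TPM and TAGLN at 3.34 and 3.94 TPM. The astrocyte markers GFAP (0.41 and 0.57 TPM), S100B (0 in both) and AQP4 (0 and 0.02 TPM) were at or near 0. NES was at 7.53 and 7.62 TPM, OLIG2 at 5.64 and 7.03 TPM and SOX2 at 1.87 and 1.45 TPM. All 4 epithelial markers were below 0.2 TPM in both libraries, the 4 endothelial markers ran from 0.12 to 3.41 TPM with DMSO and from 0.19 to 2.71 TPM with CCA-1.1, and of the 4 leukocyte markers CD68 alone was above 0.1 TPM (494 and 397 TPM). The part of other cell types in the differences was not tested.

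At the RNA level, U87 cells held a collagen repertoire that was dominated by type VI and by a single chain of type I. The summed TPM of all 44 genes was 3588 with DMSO and 3488 with CCA-1.1, and 4 genes (COL6A2, COL6A3, COL6A1 and COL1A2) made up 90.1% of it in each. Of the other members, 10 had a mean of 10 to 100 TPM, 5 had a mean of 1 to 10 TPM and 25 were below 1 TPM. The share below 1 TPM was 56.8% of the members and 39.6% of all protein-coding genes. No member was past 2-fold in either direction, that is, above 1 or below -1. Past 2-fold were 0.115% of all protein-coding genes in the upward direction and 0.140% in the downward direction, so a count of 0 among 44 genes is near the background. With 1 TPM added, the 25 members below 1 TPM could hardly pass this limit, so the count says little about them. Without a pseudocount 5 of them were past 2-fold, and no background share was computed for that setting. Of the 19 expressed members, 10 were higher and 9 were lower in the CCA-1.1 library, with a median difference of 0.018. Among all expressed genes, 46.0% were lower. A smaller limit of 1.2-fold, chosen after the values were seen, was passed upward by COL1A1 and COL6A6 and downward by COL1A2 and COL8A1, 2 of 19 members each. COL5A3 also passed it upward with a pseudocount of 0.1 TPM (0.35) or none (0.37), and with curated transcripts only COL6A6 was at 0 and COL5A3 (0.31) and COL16A1 (1.16) passed it upward. The same limit was passed by 10.7% of all expressed genes upward and by 7.04% downward.

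**Figure D1:**
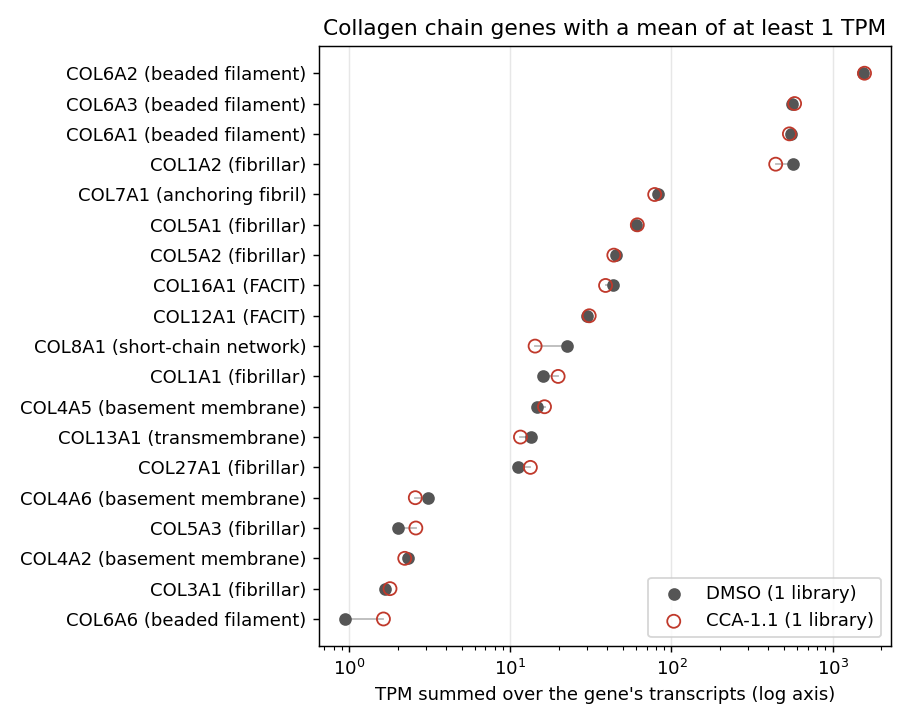
TPM per gene on a log axis for the 19 expressed collagen genes, ordered by mean, with the DMSO library as filled points and the CCA-1.1 library as open circles (1 library each, no error bars). COL6A2, COL6A3, COL6A1 and COL1A2 stand apart at the top in both libraries, and the widest gaps between the points are those of COL8A1 (22.4 and 14.2 TPM) and COL6A6 (0.94 and 1.63 TPM).

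Type VI collagen had the highest RNA level of the collagen types in both libraries, and protein was not measured. Its microfilaments are built from monomers that carry the chains alpha 1, alpha 2 and alpha 3 together. COL6A2, on chromosome 21 of GRCh38.p14, was at 1550.4 TPM with DMSO and 1578 TPM with CCA-1.1, a difference of 0.026, and ranked 61 among all protein-coding genes by mean TPM. COL6A3, the long chain, was at 562 and 581 TPM, a difference of 0.048. COL6A1 was at 555 and 539 TPM, a difference of -0.042. The level of COL6A3 was therefore 1.01 times that of COL6A1 in DMSO and 1.08 times in CCA-1.1, whereas COL6A2 exceeded COL6A1 by 2.79 times and 2.93 times. The 3 chains moved by less than 0.1 on the log2 scale, and their ranking by level kept COL6A2 at the top in both libraries. The alternative long chains were scarce. COL6A5 was at 0.01 TPM in DMSO and listed at 0 in CCA-1.1, and COL6A6 was at 0.94 TPM with DMSO and 1.63 TPM with CCA-1.1, a difference of 0.44. This placed COL6A6 at the 97.3rd percentile of differences among expressed genes, but at the 94.9th percentile among the 4135 genes at 1 to 10 TPM. Nearly all of it came from a predicted transcript, XM_011512432.3, at 0.92 and 1.61 TPM. The related pseudogenes COL6A4P1 (0 and 0.11 TPM) and COL6A4P2 (0.01 and 0.08 TPM) were near 0.

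Sequences before the start sites of the 2 most abundant type VI genes are shown because these genes lead the repertoire. They are the 250 bases upstream of the RefSeq start (GRCh38.p14, 5′ to 3′ on the gene's strand), with capitals for the CCAAT box, for the TATA box (TATAAA) and for the GC box (GGGCGG) or their reverse complements. COL6A2 is at chr21:46097862-46098111 on the plus strand and COL6A3 at chr2:237414165-237414414 on the minus strand.
COL6A2: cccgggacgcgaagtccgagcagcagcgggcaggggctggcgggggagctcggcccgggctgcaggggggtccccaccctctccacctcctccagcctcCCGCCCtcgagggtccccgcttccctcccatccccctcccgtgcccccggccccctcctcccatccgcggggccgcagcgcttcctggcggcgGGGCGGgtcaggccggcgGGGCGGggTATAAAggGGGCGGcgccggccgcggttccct
COL6A3: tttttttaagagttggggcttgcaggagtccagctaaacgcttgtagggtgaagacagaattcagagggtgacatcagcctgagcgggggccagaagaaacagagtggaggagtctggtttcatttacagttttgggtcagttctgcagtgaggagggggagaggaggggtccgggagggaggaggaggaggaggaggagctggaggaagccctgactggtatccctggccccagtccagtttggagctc
The COL6A2 window, with 79.6% G and C, held 4 GGGCGG matches and 1 TATAAA match, and the COL6A3 window, with 56.0% G and C, had no match to the 3 motifs. Of the members, 32 had at least 1 promoter window, 44 windows in all. Searched on both strands with overlaps allowed, CCAAT was in 27.3% of the 44 windows and 32.7% of 22199 windows of protein-coding genes, TATAAA in 18.2% and 9.0%, and GGGCGG in 54.5% and 53.7%. The TATAAA share of the members rests on 8 windows of 7 genes, and its difference from all windows was not tested. These matches are letters in a window and are not evidence of binding. No window was held for COL1A1, COL1A2, COL2A1, COL3A1, COL5A2, COL6A1, COL6A5, COL8A1, COL9A3, COL14A1, COL20A1 and COL22A1.

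By transcript, COL6A1 was represented by the single transcript NM_001848.3. COL6A2 came mainly from NM_001849.4, at 1444 TPM with DMSO and 1448 TPM with CCA-1.1, which was 93.2% and 91.8% of the gene. The rest of COL6A2 was in NM_058174.3 (72.8 and 79.2 TPM) and NM_058175.3 (33.1 and 50.8 TPM, a difference of 0.60), so the transcript with the lowest TPM of the gene had the widest difference. COL6A3 was divided among NM_057166.5 (270.2 and 276.5 TPM), NM_057167.4 (171 and 169.8 TPM) and NM_004369.4 (121 and 134 TPM), the last of which encodes the longest form. The share of NM_004369.4 was 21.5% with DMSO and 23.1% with CCA-1.1. Reads shared by transcripts of a gene were apportioned by Kallisto, so these shares are less certain than the gene sums.

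**Figure D2:**
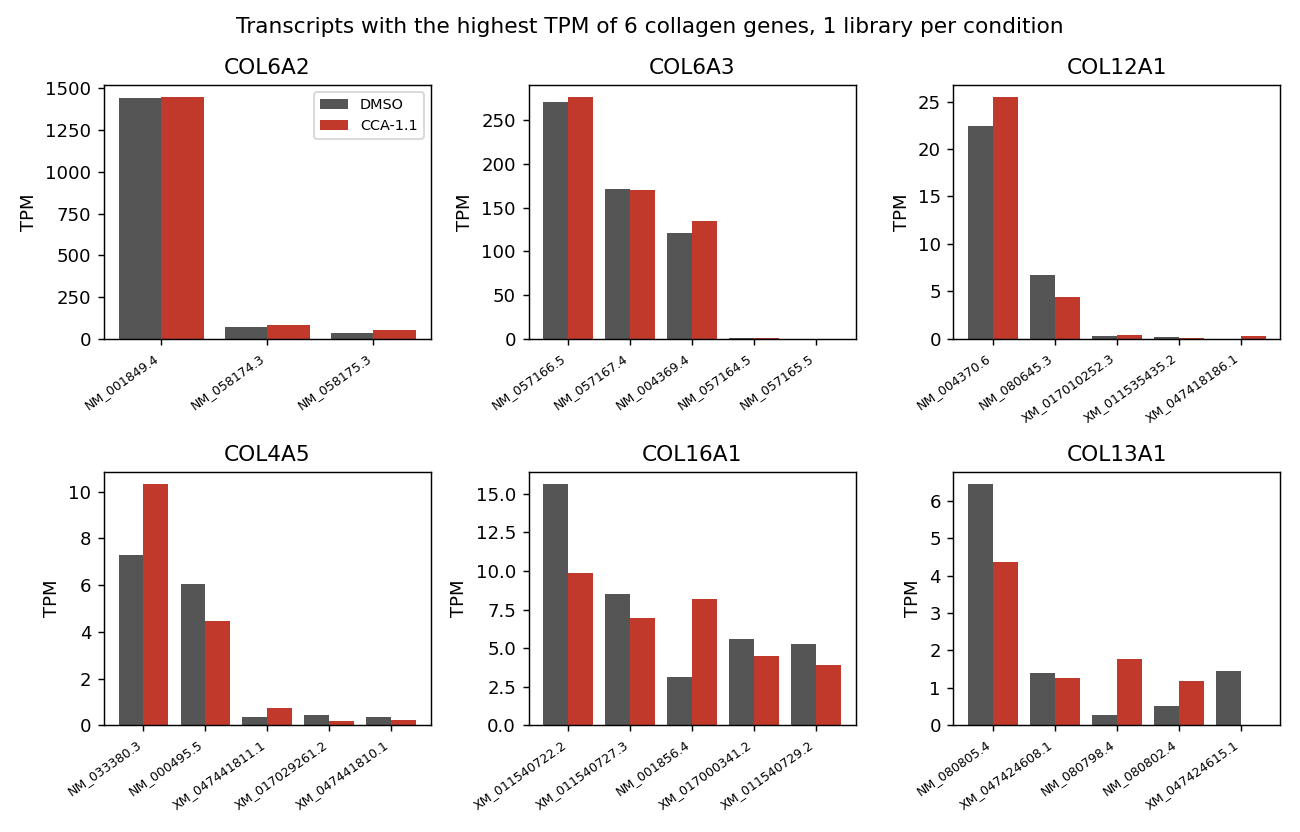
TPM of up to 5 transcripts with the highest values for 6 collagen genes, with grey bars for the DMSO library and red bars for the CCA-1.1 library (1 library each, each panel on its own linear axis from 0). COL6A2 and COL6A3 keep nearly level bars, whereas NM_001856.4 of COL16A1 (3.11 and 8.17 TPM) and NM_080798.4 of COL13A1 (0.27 and 1.77 TPM) are taller in CCA-1.1 beside transcripts of the same gene that are shorter.

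The fibrillar chains summed to 701 TPM with DMSO and 587 TPM with CCA-1.1, and COL1A2 made up most of both sums. COL1A2, which encodes the alpha 2 chain of type I collagen (chromosome 7, 94394895 to 94431227), was at 564 TPM with DMSO and 443 TPM with CCA-1.1, a difference of -0.35. This lies at the 3.67th percentile of the 1499 genes with a mean of 100 TPM or more, below their 5th percentile of -0.31. COL1A1, the alpha 1 chain, which in the usual type I trimer is present in more copies than alpha 2, was at 15.9 TPM with DMSO and 19.8 TPM with CCA-1.1, a difference of 0.30. This lies at the 94.8th percentile of the 6407 genes at 10 to 100 TPM. The type I partners therefore differed in opposite directions, and the level of COL1A2 was 35.6 times that of COL1A1 in DMSO and 22.4 times in CCA-1.1. All TPM of COL1A2 was in NM_000089.4, its only annotated transcript. All TPM of COL1A1 was in NM_000088.4, and the other annotated forms of COL1A1 were assigned 0 in both libraries. The lncRNA gene COL1A2-AS1, whose RefSeq interval ends before COL1A2 starts, was at 4.71 TPM with DMSO and 7.05 TPM with CCA-1.1, a difference of 0.50. Percentiles were computed for protein-coding genes only, so COL1A2-AS1 has none, and a relation to COL1A2 was not tested. Without COL1A2, the sum of the remaining 43 members was 3024 TPM with DMSO and 3044 TPM with CCA-1.1.

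Type V collagen, which joins type I fibrils and sets their diameter, was led by COL5A1 at 60.6 and 61.4 TPM (difference 0.018) and COL5A2 at 45.4 and 43.9 TPM (difference -0.047). COL5A3, a chain of the less common type V trimers, was at 2.01 and 2.59 TPM, a difference of 0.25. The ratio of COL5A1 to COL5A2 was 1.34 with DMSO and 1.40 with CCA-1.1, so these partners were closer in level than those of type I. COL27A1, a fibrillar chain known from cartilage, was at 11.1 and 13.3 TPM, a difference of 0.24. COL3A1, which forms homotrimers that copolymerize with type I in soft tissue, was at 1.67 and 1.79 TPM, a difference of 0.063. COL3A1 neighbours COL5A2 on chromosome 2, yet COL5A2 was 27.2 times higher in DMSO and 24.5 times higher in CCA-1.1. The remaining fibrillar chains were the cartilage genes COL2A1 (0 and 0.01 TPM), COL11A1 (0 and 0.02 TPM) and COL11A2 (0.17 and 0.39 TPM), and COL24A1 (0.04 and 0.08 TPM). Of the 7 expressed fibrillar chains, 5 were higher and 2 were lower in CCA-1.1, with a median difference of 0.063.

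**Figure D3:**
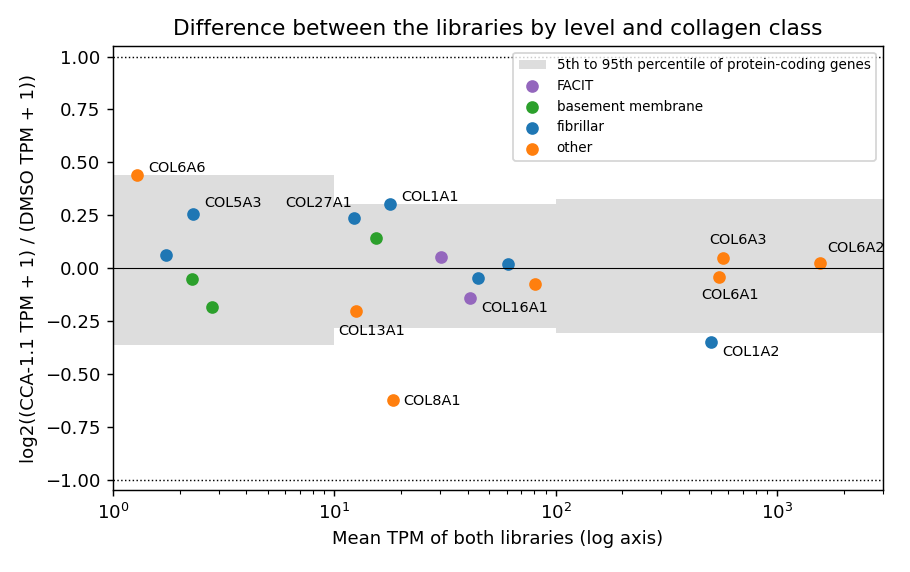
Difference on the log2(TPM + 1) scale against mean TPM (log axis) for the 19 expressed collagen genes, coloured by class, with a grey band from the 5th to the 95th percentile of protein-coding genes at 1 to 10, 10 to 100 and 100 or more TPM, and dotted lines at 2-fold. COL8A1 (-0.62) and COL1A2 (-0.35) lie below the band, and no collagen gene lies above it. By construction, 5% of the protein-coding genes at each level lie below the band and 5% above it.

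COL8A1 had the widest difference of the expressed members on the log2(TPM + 1) scale. With a pseudocount of 0.1 TPM or none, COL6A6 (0.73 and 0.79) was wider than COL8A1 (-0.65 and -0.66). COL8A1 encodes a short-chain collagen that forms hexagonal networks in vessel walls and in Descemet's membrane of the cornea. COL8A1 (chromosome 3, 99638594 to 99799217) was at 22.4 TPM with DMSO and 14.2 TPM with CCA-1.1, which is 0.634 of the DMSO level and a difference of -0.62. This is the 0.565th percentile of all expressed genes and the 0.453rd percentile of those at 10 to 100 TPM. Both of its transcripts were lower in CCA-1.1, NM_020351.4 at 18.3 and 11.9 TPM (difference -0.59) and NM_001850.5 at 4.12 and 2.37 TPM (difference -0.60). The share of NM_020351.4 was 81.6% with DMSO and 83.4% with CCA-1.1. The partner chain COL8A2 was at 0.06 and 0.05 TPM, and COL10A1, the related network collagen of hypertrophic cartilage, was at 0.09 and 0.11 TPM.

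The basement membrane chains were low, with a sum of 20.4 TPM with DMSO and 21.5 TPM with CCA-1.1, or 0.569% and 0.615% of all collagen TPM. COL4A1 and COL4A2 encode the partners of the type IV trimer found in nearly all basement membranes, but COL4A2 was at 2.33 and 2.21 TPM and COL4A1 at 0.02 TPM in both libraries. COL4A5 led the class at 14.7 and 16.3 TPM, a difference of 0.14, and COL4A6 was at 3.06 and 2.57 TPM, a difference of -0.19. COL4A3 (0.23 and 0.30 TPM) and COL4A4 (0.08 and 0.07 TPM), whose products join COL4A5 in the kidney filter, were near 0. Type IV genes lie head to head in pairs, with 126 bases between the RefSeq start sites of COL4A1 and COL4A2. In each pair, the level of one gene exceeded that of its neighbour in both libraries. For COL4A3 and COL4A4 this order rests on values of 0.30 TPM or below, at unknown depth. COL4A5 was 4.80 times COL4A6 in DMSO and 6.34 times in CCA-1.1. COL4A2 was 116.5 and 110.5 times COL4A1, ratios that rest on a COL4A1 value next to the smallest step of the table, 0.01 TPM. Of the 3 expressed chains, 1 was higher and 2 were lower, with a median difference of -0.053.

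The sequence between COL4A1 and COL4A2 is shown because both genes start at its ends in opposite directions, and the bases before COL4A5 are shown as those of the leading type IV gene (GRCh38.p14, plus strand, capitals as above). They lie at chr13:110307158-110307283 and chrX:108439588-108439837.
COL4A1-COL4A2: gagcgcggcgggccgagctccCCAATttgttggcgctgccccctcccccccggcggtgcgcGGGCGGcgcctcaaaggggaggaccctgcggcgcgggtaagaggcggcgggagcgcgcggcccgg
COL4A5: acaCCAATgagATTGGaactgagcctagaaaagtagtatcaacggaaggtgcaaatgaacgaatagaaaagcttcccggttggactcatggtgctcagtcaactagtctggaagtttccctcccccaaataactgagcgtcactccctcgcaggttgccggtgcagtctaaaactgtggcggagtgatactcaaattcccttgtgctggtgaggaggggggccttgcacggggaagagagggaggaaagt
The shared COL4A1-COL4A2 stretch held 1 CCAAT and 1 GGGCGG match and was 80.2% G and C. The COL4A5 window held 2 CCAAT matches, 1 on each strand, and was 51.2% G and C.

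FACIT collagens were represented by COL16A1 and COL12A1. COL16A1, which links fibrils to other matrix and to integrins, was at 43.1 TPM with DMSO and 39.0 TPM with CCA-1.1, a difference of -0.14. COL12A1, which sits on type I fibrils, was at 29.7 and 30.9 TPM, a difference of 0.054. The other 8 FACIT chains had means below 1 TPM. COL21A1 was at 0.98 and 0.97 TPM, COL22A1 at 0.52 and 0.61 TPM, COL20A1 at 0.30 and 0.32 TPM and COL19A1 at 0.34 and 0.13 TPM, and COL14A1 was listed at 0 in both libraries. Type IX collagen, a cartilage heterotrimer, was at 0.04 and 0.03 TPM for COL9A1, 0.68 and 0.26 TPM for COL9A2 and 0.67 and 0.10 TPM for COL9A3. On the log2(TPM + 1) scale the differences of COL9A2 and COL9A3 were -0.42 and -0.60, and with a pseudocount of 0.1 TPM both were past 2-fold, at -1.12 and -1.94. Each of the pair rested on a single transcript above 0, XM_017000333.2 for COL9A2 and NM_001853.4 for COL9A3.

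The remaining types were led by COL7A1, which forms the anchoring fibrils that fasten epithelia to the tissue beneath. It was at 82.8 TPM with DMSO and 78.7 TPM with CCA-1.1, a difference of -0.073, with 84.2% and 82.3% of its TPM in NM_000094.4. COL13A1, a transmembrane collagen of cell-matrix contacts, was at 13.5 and 11.6 TPM, a difference of -0.20. The other transmembrane chains were COL17A1 of the hemidesmosome (0.91 and 0.67 TPM), COL25A1 (0.10 and 0.03 TPM) and COL23A1 (0 and 0.02 TPM). The multiplexin COL15A1 was at 0.99 and 0.94 TPM. COL18A1, the precursor of endostatin, was at 0.05 TPM in both libraries, although it lies on chromosome 21 with the abundant COL6A1 and COL6A2. COL28A1 was at 0.35 and 0.36 TPM, and COL26A1 was listed at 0 in both libraries.

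Of 366 collagen transcripts in the table, 220 were at 0 in both libraries, and 3 were higher and 2 lower past 2-fold in CCA-1.1. Of the 77417 transcripts of protein-coding genes above 0 in either library, 2.08% were higher and 1.94% were lower by this limit, against 146 such collagen transcripts. These 5 transcripts belong to 3 genes, COL13A1, COL16A1 and COL27A1, each with many annotated forms. In COL16A1, the curated transcript NM_001856.4 was at 3.11 TPM with DMSO and 8.17 TPM with CCA-1.1, a difference of 1.16, while all other COL16A1 transcripts together were at 40.0 and 30.8 TPM, a difference of -0.37. The leading COL16A1 form, XM_011540722.2, was at 15.7 and 9.90 TPM. In COL13A1, which has 43 transcripts in the table, NM_080798.4 was at 0.27 and 1.77 TPM, and XM_047424615.1 (1.44 TPM) and NM_001368897.1 (1.19 TPM) in DMSO were listed at 0 in CCA-1.1. In COL27A1, XM_011519145.4 was at 0.06 and 2.33 TPM, while all other COL27A1 transcripts together were at 11.1 and 11.0 TPM. Less wide differences between forms of a gene, named after their values were seen, were those of COL4A5, with NM_033380.3 at 7.30 and 10.3 TPM and NM_000495.5 at 6.06 and 4.46 TPM, and of COL12A1, with NM_004370.6 at 22.5 and 25.5 TPM and NM_080645.3 at 6.75 and 4.42 TPM. Whether such pairs reflect a change of isoform or a different division of shared reads cannot be told apart from TPM.

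Of the genes that modify, fold, cut and bind collagen, most of those expressed were somewhat lower in the CCA-1.1 library. Of 65 such genes, 49 were expressed and the rest had means below 1 TPM. Of the 49, 39 were lower and 10 higher, whereas 46.0% of all expressed genes were lower. The 49 had a median difference of -0.19, against 0.017 for all expressed genes and -0.027 for those at 100 TPM or more. These gene lists were chosen with earlier results of these data known. No gene of the 65 passed 2-fold on the log2(TPM + 1) scale. Without a pseudocount ITGA11 (-1.01) and BGN (-1.58, at 0.09 and 0.03 TPM) passed it downward, as did ITGA10 (-1.58) with curated transcripts only. The share of lower genes is a description of 2 libraries and was not tested.

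Among genes of prolyl hydroxylation, which gives the triple helix its stability, P4HB was at 1054 TPM with DMSO and 874 TPM with CCA-1.1, a difference of -0.27. P4HA1 (201.7 and 191.8 TPM, difference -0.072) and P4HA2 (91.2 and 80.3 TPM, difference -0.18) differed less. Of the 8 expressed genes of this role, 7 were lower, the exception being CRTAP at 271 and 302 TPM. All 4 expressed lysyl hydroxylation and glycosylation genes were lower, led by PLOD1 (825 and 744 TPM, difference -0.15) and PLOD2 (578 and 521 TPM, difference -0.15). Folding and export genes did not share that direction, with 5 higher and 3 lower. The collagen chaperone SERPINH1 was at 43.9 and 47.6 TPM (difference 0.12), the cargo receptor MIA3 at 95.5 and 101.3 TPM (difference 0.085) and the prolyl isomerase PPIB at 627 and 579 TPM (difference -0.12). CREB3L1, a transcription factor known to act on COL1A1, was at 79.9 and 69.5 TPM, a difference of -0.20. Of the propeptide proteases and their enhancers, BMP1 was at 58.0 and 60.0 TPM, PCOLCE at 207 and 182 TPM, PCOLCE2 at 2.08 and 2.99 TPM (difference 0.37) and ADAMTS2 at 2.58 and 3.49 TPM (difference 0.33).

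All 4 expressed lysyl oxidase genes, which crosslink collagen and elastin, were lower in CCA-1.1 by similar amounts. LOXL2 was at 507 and 424 TPM (difference -0.26), LOX at 60.5 and 52.2 TPM (difference -0.21), LOXL1 at 28.1 and 23.2 TPM (difference -0.27) and LOXL3 at 60.2 and 50.8 TPM (difference -0.24). The matrix partners of collagen were also lower in each of the 7 expressed genes. FN1, fibronectin, was at 11241 and 9088 TPM, a difference of -0.31, and was the most abundant of these genes. The proteoglycan LUM was at 244 and 201 TPM (difference -0.28), and DCN, which binds fibrils, was at 3.49 and 2.01 TPM (difference -0.58).

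**Figure D4:**
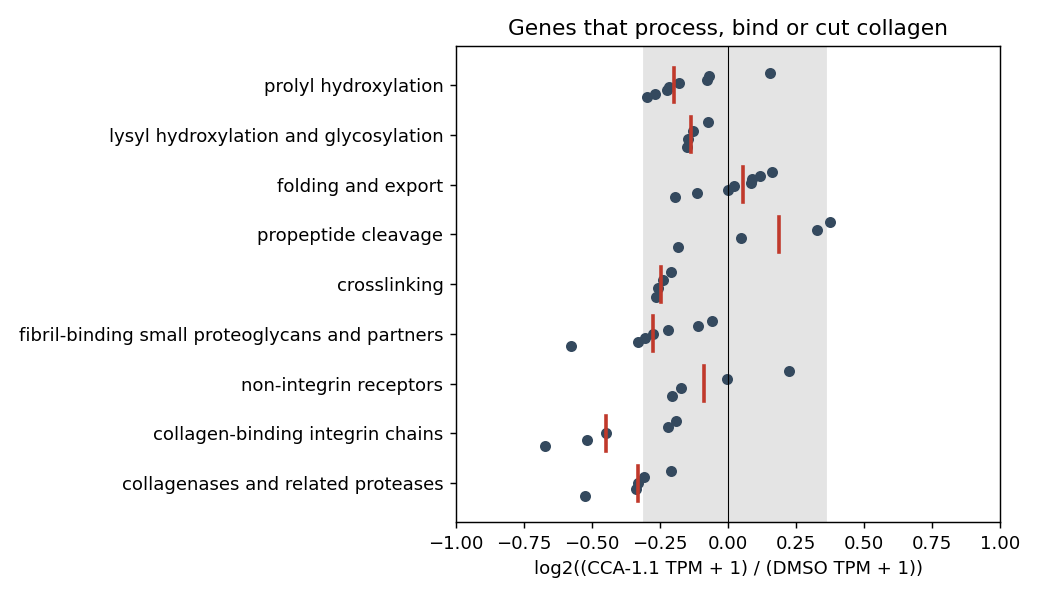
Difference on the log2(TPM + 1) scale for the 49 expressed genes that process, bind or cut collagen, 1 point per gene, by role, with a red line at the median of each role and a grey band from the 5th to the 95th percentile of all expressed protein-coding genes (-0.31 to 0.36). Crosslinking genes cluster near -0.25, and the lowest point is the integrin chain ITGA10 at -0.67.

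The widest difference among these genes was that of a collagen receptor chain. All 5 chains of collagen-binding integrins were lower in CCA-1.1, with ITGA10 at 13.2 and 7.88 TPM (difference -0.67), ITGA11 at 1.51 and 0.75 TPM (difference -0.52), ITGA2 at 43.6 and 31.6 TPM (difference -0.45) and their common partner ITGB1 at 1161 and 1017 TPM (difference -0.19). The collagen-activated kinase DDR2 was at 70.8 and 70.7 TPM, its relative DDR1 at 57.6 and 49.8 TPM, the uptake receptor MRC2 at 214 and 189.7 TPM, and the receptor ADGRG1 at 96.8 and 113 TPM (difference 0.22). All 5 expressed collagen-cutting proteases were lower, with MMP2 at 2556 and 2064 TPM (difference -0.31) and MMP14 at 104 and 71.9 TPM (difference -0.53), and MMP13 was listed at 0 in both libraries.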

How the data were processed

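RNA from U87 cells was sequenced after 72 h with DMSO or CCA-1.1, 1 library each. The authors enriched mRNA, checked reads with FastQC 0.11.9 and MultiQC 1.1, and quantified transcripts by Kallisto pseudo-alignment on a GRCh38.p14 reference. The values the authors deposited are TPM with 2 decimals, and the columns sum to 999999 and 1000000. Depth is unknown. Here, 169966 of 177816 transcripts were matched to RefSeq genes of GRCh38.p14 and summed per gene. Genes were counted past 2-fold on the log2(TPM + 1) scale, and medians and percentiles used expressed genes (mean of 1 TPM or more). The members and gene lists were chosen with earlier results of these data known. Expressed members were named, as were the transcripts of leading or changed members, and of other lists the highest and extreme genes of a role. Promoter sequences are from RefSeq. The calculation was tested on simulated data. Alternatives were pseudocounts of 0.1 TPM or none, filters, median-ratio scaling and curated transcripts. Python 3.11.15, numpy 2.4.6, pandas 2.3.3 and matplotlib 3.10.9 were used.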

Additional observations from a re-analysis of the deposited data

How the results depend on the processing

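The count of members past 2-fold was 0 in the main calculation, over expressed members only and under median-ratio scaling (factor 1.003). It was 2 with a pseudocount of 0.1 TPM (COL9A2 and COL9A3), 5 with no pseudocount (these and COL11A2, COL19A1 and COL25A1, all below 1 TPM) and 1 with curated transcripts only (COL16A1). With curated transcripts only, the FACIT chains had a median difference of 0.60 and sums of 34.0 TPM with DMSO and 39.0 TPM with CCA-1.1, since most COL16A1 transcripts are predicted ones and drop out. The basement membrane sums were then 18.5 and 19.3 TPM. Every other class median or sum moved by less than 0.1 on the log2 scale under the settings tried. COL5A1 (-0.024), COL16A1 (1.16) and COL13A1 (0.061) changed sign with curated transcripts only, COL6A6 was at 0 (NM_001102608.3 alone, 0.01 TPM in both), and COL27A1 gave no value because its curated transcript is at 0. No other expressed member changed sign under the settings tried. In alternatives chosen after seeing the data, expressed members past 1.2-fold numbered 2 or 3 upward and 2 downward. Of the 65 genes that act on collagen, 2 were past 2-fold with no pseudocount (1 of them expressed) and 1, also expressed, with curated transcripts only, against 0 otherwise, and 39 expressed ones were lower under each setting. No paired analysis was possible because each condition had 1 library, so neither library could be left out. The unknown depth limits every value near 0, COL4A1 among them.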
